A study of Mus musculus with 6 samples.

Results

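The genes described here encode fibronectin (Fn1), thrombospondins (Thbs1, Thbs2, Thbs3 and Thbs4), tenascin C (Tnc), tenascin X (Tnxb), periostin (Postn), SPARC (Sparc) and osteopontin (Spp1). They were taken by symbol from the count tables, in which all 10 were found among 23329 genes. The study compared mesenchymal cells grown from the small intestine of C57 mice, with 3 cultures made at embryonic day 14.5 (E14.5) and 3 made in adulthood. The replicates are called embryonic cultures 1 to 3 and adult cultures 1 to 3. Adult gut was opened and scraped free of villi and embryonic gut was minced, after which both were stripped of epithelium, digested and plated until confluent. All 6 cultures grew in serum-containing medium with the inhibitor Y27632, and RNA was taken at passage 2 to 3. Whether each culture had its own animals is not stated, so the spread and the p-values describe only these cultures and may be partly technical.

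Fibronectin is a large adhesive glycoprotein that cells assemble into fibrils through integrins, and other matrix proteins are laid down on it. Thrombospondins, tenascins, periostin, SPARC and osteopontin are known as matricellular proteins, which adjust how cells hold to the matrix and respond to growth factors more than they bear load. In the gut wall they are made largely by fibroblasts, myofibroblasts and smooth muscle, and osteopontin also by macrophages.

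Several of these proteins carry the tripeptide arginine-glycine-aspartate, the site that many integrins bind. To show which genes encode it, the coding sequence of 1 annotated transcript per gene (GENCODE M21, GRCm38, which is the mm10 build of the counts) was searched in frame. It was found in Fn1, Thbs1, Thbs2, Thbs4 and Spp1, and not in the transcripts used of Thbs3, Tnc, Tnxb, Postn or Sparc. The windows below hold the match in capitals with 3 codons on each side, and codons are counted from 1 at the start codon. The Fn1 match shown begins at codon 1614, that of Thbs1 at 927, that of Thbs2 at 928 and that of Spp1 at 145. Fn1 has 2 matches and Thbs4 also has 2, of which only the Fn1 match at codon 1614 is printed.
Fn1: gtcactggcCGTGGGGACagtccagca
Thbs1: ggtgatggcCGAGGTGACgcctgcaaa
Thbs2: ggtgacggcCGAGGTGACatttgtaaa
Spp1: cccaacggcCGAGGTGATagcttggct

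Libraries held 18850224 to 32672370 counts in gene rows, the fewest in adult culture 2. Markers of mesenchyme were mixed in level, with Vim, the vimentin gene, at 3049 to 3918 CPM (counts scaled to each library's size after TMM adjustment) and Acta2, for smooth muscle actin, at 8666 to 15462 CPM. In the fibroblast list, Col1a1 measured 3708 to 11534, Col1a2 1088 to 4438, Col3a1 1150 to 3605 and Dcn 631 to 4324 CPM. Pdgfrb measured 139 to 383, Lum 55.6 to 685 and Thy1 39.6 to 358 CPM. The lowest of the list in each library were Pdgfra and Twist1, the latter at 8.94 to 12.7 CPM. Pdgfra, a growth factor receptor gene of fibroblasts, measured 2.47, 3.85 and 4.45 CPM at E14.5 against 29.5, 81.0 and 31.7 CPM in adults. Of the epithelial list, Epcam stayed at 0.0618 to 0.141 CPM, whereas the keratin gene Krt20 measured 61.4, 47.0 and 24.4 CPM in the embryonic and 13.4, 9.09 and 13.7 CPM in the adult cultures. Summed macrophage and leukocyte markers ranged from 304 to 3460 CPM among embryonic and from 27.1 to 226 CPM among adult cultures. Summed endothelial markers ranged from 25.5 to 70.3 CPM among embryonic and from 38.8 to 2063 CPM among adult cultures. Fewer cells of a type and less RNA per cell cannot be told apart in such bulk samples.

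Fibronectin, thrombospondin 1 and SPARC dominated the group in both kinds of culture, and none of the genes passed the test between E14.5 and adult. The 10 genes together took 4.32%, 3.81% and 3.71% of all gene counts in embryonic cultures 1, 2 and 3. In adult cultures 1, 2 and 3 they took 4.13%, 3.83% and 4.53%, so the groups overlapped. The mean difference of -0.21 percentage points was smaller in size than the SD of 0.328 in E14.5 and 0.355 in adults. A two-sided exact permutation test gave p = 0.50 (adjusted over 3 such tests p = 0.50, where 0.1 is the smallest p the design allows). This does not show that the shares are equal. Leaving out 1 library moved the difference between -0.40, without embryonic culture 1, and -0.027, without adult culture 3. Without embryonic culture 1 the groups did not overlap (p = 0.20 by exact permutation, the smallest that 2 against 3 allows). In the edgeR quasi-likelihood test with Benjamini-Hochberg adjustment at 0.05, 0 of 9 tested members were called, against 1.08% of all 13478 genes tested. Thbs4 was the member with too few counts for the test. Without adjustment, 1 member, Spp1, had p under 0.05, against 17.9% of all genes. The same member was the 1 that DESeq2 called, against 10.6%, while limma-voom found 0, against 1.02%. Groups did not overlap in CPM for 1 of 9 members, Thbs1, whereas this held for 24.1% of all genes. The median log2 fold change of the members, E14.5 over adult, was -0.24, beside 0.01 for all genes tested.

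Per length, the order of the genes could be compared. Levels were expressed as CPM per kilobase of exon (CPM/kb), with exon lengths from GENCODE M21, which may differ from the authors' annotation. In E14.5 cultures Sparc led at 3082 ± 159 CPM/kb (SD, n = 3), followed by Thbs1 at 1980 ± 663, Fn1 at 1755 ± 103, Tnc at 400 ± 201 and Postn at 243 ± 187. Within libraries, Thbs1 lay above Fn1 in embryonic cultures 1 and 2 and below it in culture 3. Tnc lay above Postn in all 3, although the ranges of these genes over the cultures overlapped. The ranges of Sparc and Thbs1 did not overlap, nor did those of Fn1 and Tnc. Spp1 at 53.3 ± 38.2 and Thbs2 at 31.0 ± 22.6 CPM/kb came next and overlapped, with Spp1 the higher in embryonic cultures 2 and 3 only. The range of Postn overlapped both, and in embryonic culture 2 Postn lay below Spp1 (27.6 against 53.7 CPM/kb). Thbs3, Tnxb and Thbs4 lay far lower at 1.26, 0.118 and 0.0518 CPM/kb.

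In adult cultures the order was Sparc at 3631 ± 1078 CPM/kb, Thbs1 at 2872 ± 291, Fn1 at 1399 ± 266, Postn at 373 ± 101, Tnc at 278 ± 18.8, Thbs2 at 88.4 ± 44.7 and Spp1 at 9.52 ± 9.68 CPM/kb (SD, n = 3). Sparc lay above Thbs1, and Postn above Tnc, in adult cultures 1 and 3 and below in culture 2. The ranges of the other neighbours did not overlap, so Thbs1 lay above Fn1 per length in all 3 adult libraries. Among 12227 genes with a length, the mean levels per length ranked Sparc 4, Thbs1 10 and Fn1 13 in E14.5, and Sparc 3, Thbs1 5 and Fn1 18 in adult cultures. Adult Thbs3, Tnxb and Thbs4 measured 1.52, 0.137 and 0.0372 CPM/kb.

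**Figure D1:**
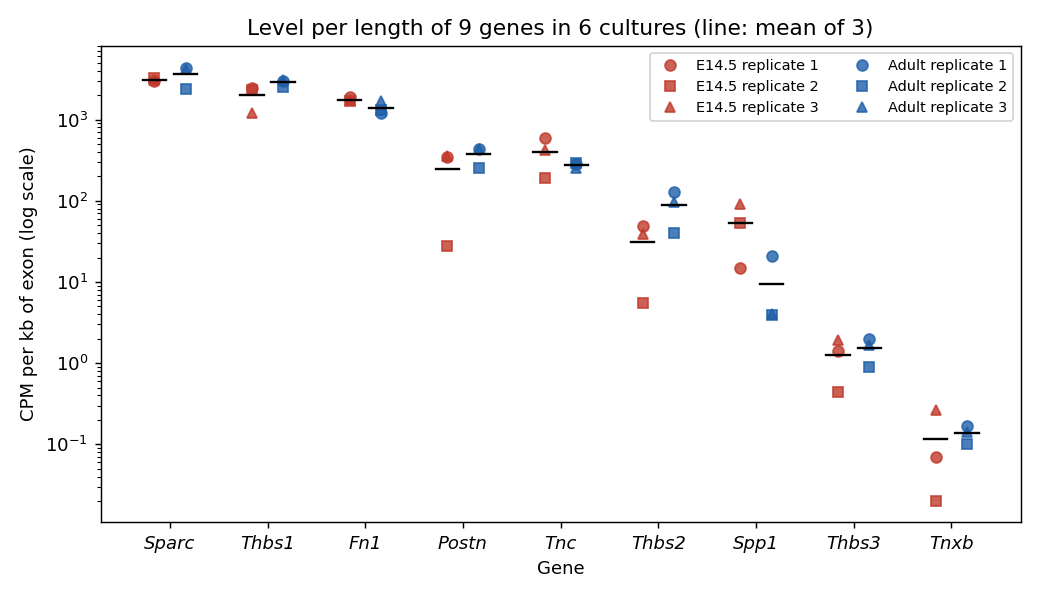
CPM per kilobase of exon on a log axis for 9 of the genes, with 1 point per culture (red E14.5, blue adult, shapes for replicates) and a line at each mean of 3. Sparc, Thbs1 and Fn1 are the highest in each library, and E14.5 replicate 2 is the lowest point for Postn, Thbs2, Tnc, Thbs3 and Tnxb.

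Fn1 occupies 71585520 to 71653200 of chromosome 1 in mm10, minus strand, and measured 15842, 14133 and 14667 CPM in embryonic cultures 1, 2 and 3. In adult cultures 1, 2 and 3 it measured 10074, 11113 and 14402 CPM. Adult culture 3 lay within the E14.5 range and the other adult cultures below it. This gave a log2 fold change of 0.33 (SE 0.21, 95% interval -0.17 to 0.82, adjusted p = 0.488, edgeR), which is 1.25-fold. Fn1 held first place by raw counts in the E14.5 libraries and places 4, 2 and 3 in adult cultures 1, 2 and 3. Its embryonic cultures were close together, with an SD of 0.084 in log2 CPM, where the median gene had 0.295. In adults its SD of 0.266 lay above the median gene's 0.194. The gene counts do not separate the spliced forms of fibronectin. An antisense gene model named Apol7d overlaps Fn1 on the other strand, and forward-strand reads made up 0.774% of the stranded counts at Fn1.

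Thrombospondin 1 is secreted as a trimer, activates latent TGF-beta and inhibits the growth of blood vessels. Thbs1 lies on chromosome 2 from 118111876 to 118127133 on the plus strand. It measured 14259, 13348 and 7132 CPM in embryonic cultures 1, 2 and 3, and 17514, 14851 and 18015 CPM in adult cultures 1, 2 and 3. All adult cultures lay above all E14.5 cultures, but the nearest pair, adult culture 2 and embryonic culture 1, differed little, and embryonic culture 3 stood apart below. The log2 fold change of -0.54 (SE 0.30, interval -1.26 to 0.19, adjusted p = 0.428, edgeR) became -0.28 without embryonic culture 3. Embryonic culture 3 was also the library with the most macrophage and leukocyte markers, at 3460 CPM, and whether these bear on its low Thbs1 was not tested.

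Relative to Fn1, Thbs1 was lower in every embryonic culture than in any adult culture, as a ratio of counts within each library shows without any scaling between libraries. Thbs1 had 0.900, 0.944 and 0.486 counts per Fn1 count in embryonic cultures 1, 2 and 3. In adult cultures 1, 2 and 3 the ratio was 1.74, 1.34 and 1.25. The groups did not overlap. These are raw counts, which grow with gene length, so a ratio of 1 does not mean equal levels per length. The mean difference in the log2 ratio was -0.94 (two-sided exact permutation test, p = 0.10, the smallest that 3 against 3 allows, adjusted p = 0.30 over 3 tests). It ranged from -1.11 to -0.63 when each library was left out in turn. The ratio was computed because the top places of these genes in the libraries were already known, so it is a description of them and not independent evidence.

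**Figure D2:**
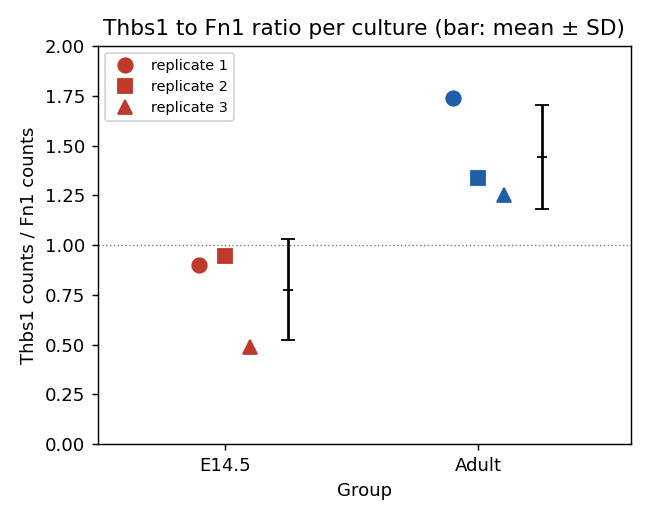
Thbs1 counts divided by Fn1 counts in each culture, with the mean ± SD of 3 beside the points and a dotted line at 1. The 3 adult cultures sit between 1.25 and 1.74 and the 3 E14.5 cultures between 0.486 and 0.944.

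Thrombospondin 2 resembles thrombospondin 1 in structure and does not activate TGF-beta. Thbs2, on chromosome 17 from 14665500 to 14694235 on the minus strand, measured 288, 32.7 and 227 CPM at E14.5 against 755, 236 and 573 CPM in adult cultures 1, 2 and 3. Adult culture 2 fell between the E14.5 values, and embryonic culture 2 was far below every other library. Its log2 fold change was -1.51 (SE 0.80, interval -3.46 to 0.43, adjusted p = 0.403, edgeR), a 2.86-fold higher adult mean that did not pass the test. Without embryonic culture 2 it was -1.02.

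Thbs3 and Thbs4, thrombospondins that assemble as pentamers and are known from tendon, cartilage and muscle, were low, at 45 to 201 counts a library for Thbs3 and 0 to 8 for Thbs4. Thbs3, on chromosome 3 from 89215180 to 89226837, measured 4.47, 1.40 and 6.21 CPM at E14.5 against 6.28, 2.88 and 5.34 CPM in adult cultures 1, 2 and 3, so the groups overlapped. Its log2 fold change of -0.27 (interval -1.69 to 1.15) turned to 0.14 without embryonic culture 2. Thbs4, on chromosome 13 from 92751590 to 92794818, had 8, 0 and 8 counts in E14.5 and 1, 5 and 2 counts in adult cultures 1, 2 and 3. It was left out of the test, and no fold is given because 1 library had 0 counts (a count of 0 allows up to 3, for counting error only) and the rest had few. Thbs1 supplied 97.99%, 99.7% and 96.8% of the counts of the 4 thrombospondin genes in E14.5 and 95.8%, 98.4% and 96.9% in adult cultures 1, 2 and 3. These shares overlapped between the groups (exact permutation p = 0.50, adjusted p = 0.50).

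Tenascin C is a hexameric glycoprotein prominent in embryonic mesenchyme and in wounds. Tnc, on chromosome 4 from 63959785 to 64047015 on the minus strand, measured 4592, 1475 and 3271 CPM at E14.5 against 2222, 2266 and 1994 CPM in adult cultures 1, 2 and 3. Embryonic cultures 1 and 3 lay above all adult cultures and embryonic culture 2 below all of them. The adult cultures were close together, with an SD of 0.0996 in log2 CPM against 0.841 in E14.5. For E14.5 over adult the log2 fold change was 0.53 (SE 0.39, interval -0.43 to 1.48, adjusted p = 0.571, edgeR). Without embryonic culture 2 it was 0.86 (adjusted p = 0.084), the lowest adjusted p of Tnc in any fit, and without embryonic culture 1 it was 0.12.

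Tenascin X is the tenascin of loose connective tissue and organizes collagen fibrils. Tnxb, on chromosome 17 from 34670535 to 34719815, was barely expressed, with 27, 8 and 104 counts in E14.5 and 54, 25 and 49 counts in adult cultures 1, 2 and 3. These are 0.844, 0.248 and 3.21 CPM at E14.5 against 2.04, 1.24 and 1.72 CPM in adults, where the E14.5 range encloses the adult one. The log2 fold change of -0.22 (interval -2.30 to 1.86) had no stable sign, at 0.28 without embryonic culture 2, 0.03 without embryonic culture 1 and -1.61 without embryonic culture 3. The pseudogene Cyp21a2-ps overlaps Tnxb on the other strand, and 5.32% of the stranded counts at Tnxb were on the forward strand.

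Periostin is a matricellular protein of fibroblasts that binds integrins and promotes collagen cross-linking. Postn, on chromosome 3 from 54361109 to 54391037, measured 1126, 90.9 and 1181 CPM at E14.5 against 1426, 843 and 1408 CPM in adult cultures 1, 2 and 3. Embryonic cultures 1 and 3 fell within the adult range, and embryonic culture 2 alone was low. With all libraries the log2 fold change was -0.62 (SE 0.83, interval -2.63 to 1.40, adjusted p = 0.780, edgeR), and without that library it was -0.09. The SD of Postn among E14.5 cultures was 2.12 in log2 CPM, higher than or equal to that of 99.3% of genes tested, and that of Thbs2 was 1.72, at 97.4%.

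Embryonic culture 2 was thus low in several members at once and ordinary in others. It had the lowest level of the 6 libraries for Postn, Thbs2, Tnc, Thbs3 and Tnxb, whereas its Fn1, Thbs1 and Sparc lay within the range of the other libraries. Thbs3 and Tnxb had only 45 and 8 counts in it. The share of all genes lowest in this library was not computed, so nothing particular to the members follows. Over all genes, leaving it out raised the number called from 146 to 471 (edgeR, adjusted p under 0.05). Mesothelial markers summed to 903 CPM in embryonic culture 2, and to 195 and 176 CPM in embryonic cultures 1 and 3. Adult cultures had 723 to 1691 CPM. All 10 listed mesothelial markers had counts in every library. The summed fibroblast list was 12716 CPM in embryonic culture 2, against 22254 and 24581 CPM in embryonic cultures 1 and 3, while adult culture 2 measured 12503 CPM. Most genes of this list were lower in embryonic culture 2 than in embryonic cultures 1 and 3. These were Col1a1 (5744 against 11534 and 11209 CPM), Dcn (631 against 2965 and 4324), Lum (55.6 against 447 and 685), Col1a2, Col3a1, Pdgfrb and Thy1. Pdgfra lay between embryonic cultures 1 and 3, and Vim (3698 against 3365 and 3266) and Twist1 (10.6 against 8.94 and 9.79) were higher. Most listed smooth muscle genes were lower too, such as Mylk (401 against 1911 and 1561) and Myh11 (1263 against 3492 and 2835). Actg2 (2215 against 7551 and 4719), Cnn1 (477 against 1051 and 751), Smtn, Lmod1 and Synpo2 were also lower. Acta2 and Tagln lay between embryonic cultures 1 and 3, and Des (2625 against 2158 and 1722) was higher. The part of these cell types in the low values was not tested.

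**Figure D3:**
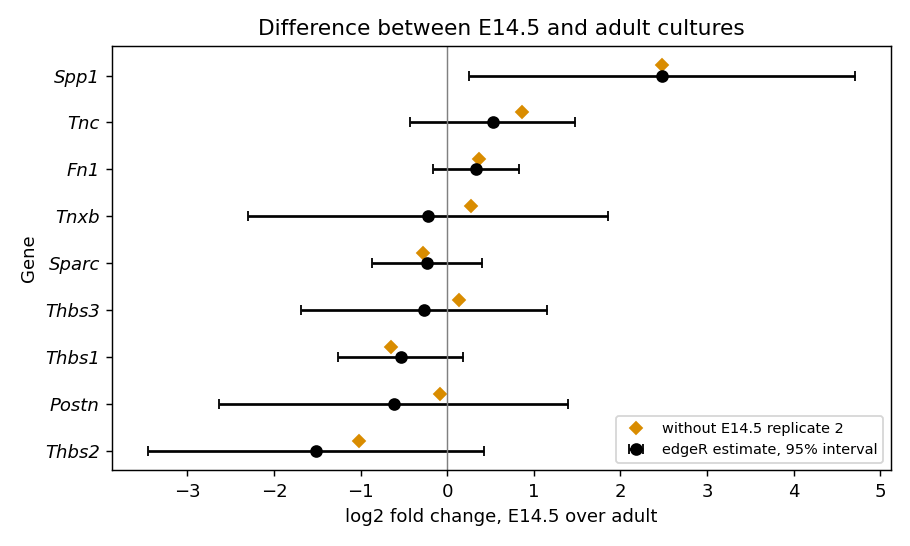
The log2 fold change of E14.5 over adult for the 9 tested genes (black points, edgeR, with 95% intervals), and the same value without E14.5 replicate 2 (orange diamonds). The intervals of 8 genes include 0, that of Spp1 runs from 0.25 to 4.71, and the diamonds of Postn, Thbs3 and Tnxb lie near or above 0.

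SPARC binds collagen and calcium and takes part in collagen fibril assembly. Sparc, on chromosome 11 from 55394500 to 55423183 on the minus strand, measured 8036, 8871 and 8254 CPM at E14.5 against 11859, 6507 and 11270 CPM in adult cultures 1, 2 and 3. Adult cultures 1 and 3 lay above the E14.5 cultures and adult culture 2 below them. Its log2 fold change was -0.24 (SE 0.26, interval -0.87 to 0.40, adjusted p = 0.726, edgeR), and ran from -0.47 without adult culture 2 to -0.09 without adult culture 1. Like Fn1, Sparc varied little in E14.5, with an SD of 0.0737 in log2 CPM, and more in adults, at 0.480. Adult culture 2 also had the highest endothelial marker sum, at 2063 CPM, and the lowest counts of all libraries, and the part of either was not tested.

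Osteopontin, a secreted phosphoprotein of bone and of activated macrophages, had the largest difference of the members. Spp1, on chromosome 5 from 104435118 to 104441050 on the plus strand, measured 24.6, 88.5 and 151 CPM at E14.5 against 34.1, 6.41 and 6.57 CPM in adult cultures 1, 2 and 3. Adult culture 1 exceeded embryonic culture 1, so the groups overlapped. The log2 fold change was 2.48 (SE 0.92, interval 0.25 to 4.71), a 5.59-fold higher E14.5 level with adjusted p = 0.236 in edgeR, 0.278 in limma-voom and 0.018 in DESeq2. Over fits without 1 library it ranged from 1.85 without embryonic culture 3 to 3.76 without adult culture 1. Between libraries that share a title prefix, the difference in log2(CPM + 1) was -0.46, 3.60 and 4.32, so 2 of 3 such pairs were higher in E14.5. On the same scale the difference kept 1 sign in all 3 pairs for Fn1 (0.65, 0.35 and 0.03), Thbs1 (-0.30, -0.15 and -1.34), Thbs2 (-1.39, -2.81 and -1.33) and Postn (-0.34, -3.20 and -0.25), and not for the other members. The last Fn1 value is close to 0. The share of all genes with 1 sign in all 3 pairs was not computed, so nothing particular to these members follows. What the prefixes mark is not stated, and these signs were not tested.

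The order of the libraries by Spp1 was that of the macrophage markers, except that embryonic culture 1 and adult culture 1 changed places. The marker sum was 304, 541 and 3460 CPM at E14.5 against 226, 27.1 and 57.6 CPM in adult cultures 1, 2 and 3. Adult culture 1, the adult culture with the most Spp1, had the most of these markers among the adults, and embryonic culture 3 had the most of both. Of 19 listed markers in the tables, 16 had counts in every library. Csf1r, the macrophage growth factor receptor, measured 37.1, 47.3 and 295 CPM at E14.5 against 18.4, 2.19 and 10.7 CPM in adults. C1qa, a macrophage complement gene, measured 24.2, 36.0 and 321 CPM and 14.7, 1.09 and 2.36 CPM in the same order. The part of macrophages in the Spp1 difference was not tested.

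**Figure D4:**
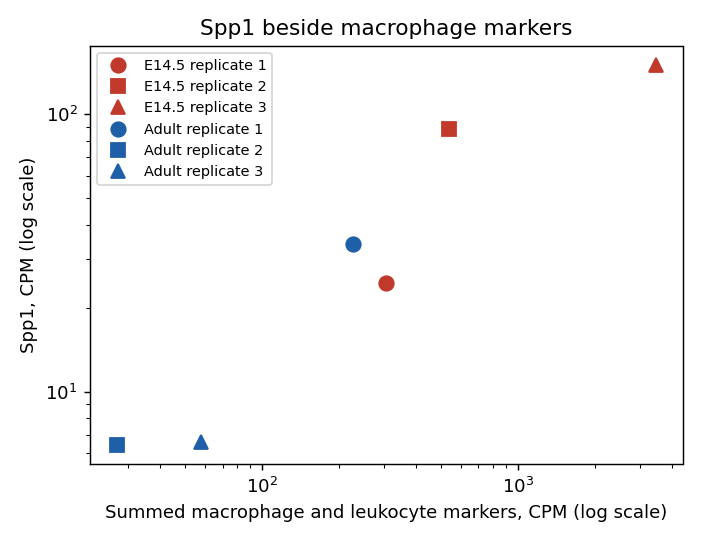
Spp1 CPM against the summed CPM of 19 macrophage and leukocyte markers, both on log axes, 1 point per culture. Adult replicates 2 and 3 lie lowest on both axes and E14.5 replicate 3 highest, with E14.5 replicate 1 and adult replicate 1 close together between them.

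For each tested member, the genes of most similar profile over the 6 libraries were found by the root mean square difference of log2 CPM after centring each gene on its mean. Thbs1 lay nearest to Ctgf, a matricellular CCN gene, at 0.072, and to Vgll3, which encodes a cofactor of TEAD transcription factors, at 0.124. Ctgf measured 3893, 4171 and 2241 CPM at E14.5 against 5032, 4237 and 5238 CPM in adults, so it too was lowest in embryonic culture 3. Postn and Thbs2 shared Fndc1, a gene with fibronectin domains, among their nearest, at 0.347 and 0.348. Fndc1 measured 22.6, 2.14 and 31.7 CPM at E14.5 against 54.1, 18.1 and 50.6 CPM in adults, again lowest in embryonic culture 2. The other near gene of Postn was Itga8, which encodes an integrin chain that binds fibronectin, tenascin C and osteopontin, at 0.381, and that of Thbs2 was Plac8 at 0.334. For Spp1 they were Adam8 at 0.259, a protease gene of leukocytes, and Cd300lb at 0.430, a myeloid receptor gene. Fn1 lay nearest to Chchd6 and Peg12, Tnc to Shd and Col27a1, Sparc to Rcan1 and Numbl, Thbs3 to Lrrc16b and Nkd1, and Tnxb to Gal3st4 and Grem1. These are likenesses over 6 libraries among 13478 genes, and nothing about shared control follows from them.

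**Figure D5:**
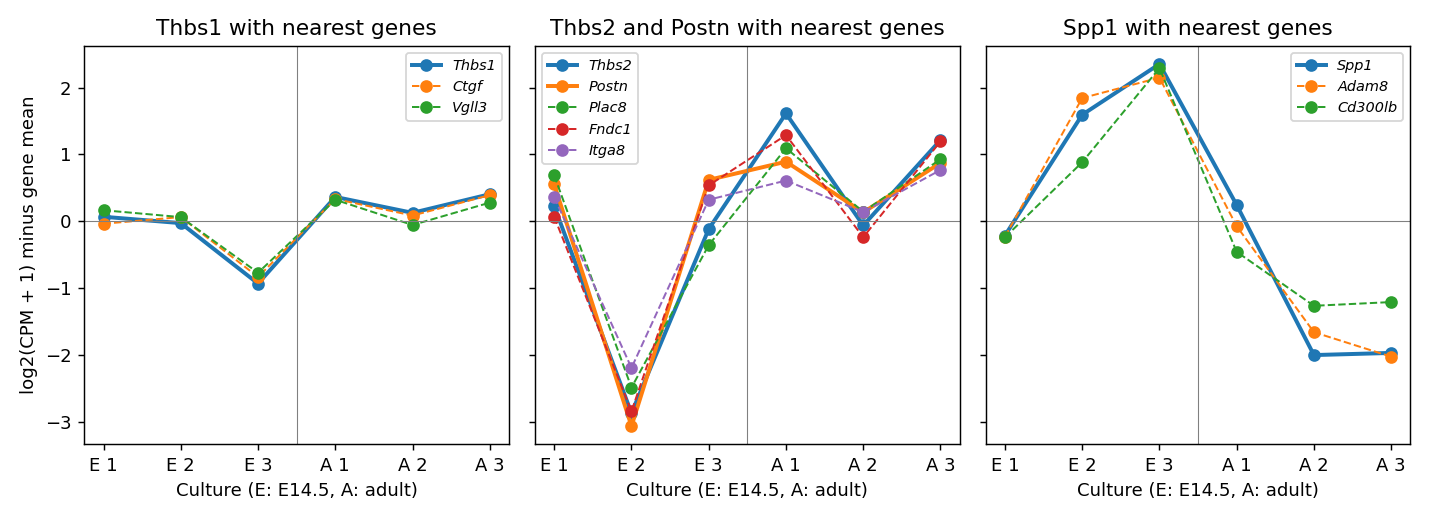
log2(CPM + 1) minus the gene's mean in E14.5 (E 1 to E 3) and adult (A 1 to A 3) cultures, for Thbs1, for Thbs2 and Postn, and for Spp1 (solid lines), each with its nearest genes (dashed). Thbs1 dips in E14.5 replicate 3, Thbs2 and Postn dip in E14.5 replicate 2, and Spp1 peaks in E14.5 replicate 3.

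The promoters of Postn, Thbs2 and Spp1 are shown because Postn and Thbs2 were both lowest in embryonic culture 2 and shared Fndc1 as a near gene, which Spp1 did not. The likeness of Postn to Thbs2 was not measured directly, and this choice comes from the same data. RefSeq promoters of 300 bases (GRCm38.p6, 250 before and 50 after a start) were found for 8 of the 10 genes, and not for Fn1 and Thbs1. Both strands were searched for TATAAA, the TATA box, and for CCAAT. The search also covered GGGCGG, the GC box, and TGANTCA, which AP-1 binds. The last motifs were GGAATG, which TEAD factors bind, and GTCTAGAC, which SMAD factors bind. Capitals mark every match, read on the gene's strand, and a match to the reverse complement is in capitals too. Of 32851 promoters, 13.6% held TATAAA, 37.4% CCAAT, 35.7% GGGCGG, 7.81% TGANTCA, 14.7% GGAATG and 0.213% GTCTAGAC. The Postn promoter shown, 1 of 2 for this gene, lies at chr3:54360857-54361156 on the plus strand and has TATAAA 26 bases before the start. That of Thbs2 lies at chr17:14694213-14694512 on the minus strand, with the reverse complement of TATAAA 126 bases before the start and CCAAT on either strand 186 and 144 bases before it. The Spp1 promoter shown, also 1 of 2, is chr5:104434861-104435160 on the plus strand, with TATAAA 211 and the reverse complement of CCAAT 46 bases before the start. No match to the other motifs lies in these 3 windows. No matches overlap each other in them. The windows of Postn and Spp1 that are not shown hold no TATAAA, so its presence in all 3 printed windows follows from which were printed.
Postn: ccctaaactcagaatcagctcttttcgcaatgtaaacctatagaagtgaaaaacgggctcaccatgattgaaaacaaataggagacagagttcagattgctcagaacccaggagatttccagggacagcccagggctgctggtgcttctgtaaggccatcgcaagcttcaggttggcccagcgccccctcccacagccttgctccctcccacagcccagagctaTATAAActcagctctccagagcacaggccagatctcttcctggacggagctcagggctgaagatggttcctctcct
Thbs2: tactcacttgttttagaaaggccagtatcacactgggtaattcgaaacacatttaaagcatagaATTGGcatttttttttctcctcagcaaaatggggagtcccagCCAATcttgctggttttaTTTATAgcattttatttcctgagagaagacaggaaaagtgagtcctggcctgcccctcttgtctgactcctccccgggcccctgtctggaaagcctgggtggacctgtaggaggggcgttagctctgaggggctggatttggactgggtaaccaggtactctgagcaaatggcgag
Spp1: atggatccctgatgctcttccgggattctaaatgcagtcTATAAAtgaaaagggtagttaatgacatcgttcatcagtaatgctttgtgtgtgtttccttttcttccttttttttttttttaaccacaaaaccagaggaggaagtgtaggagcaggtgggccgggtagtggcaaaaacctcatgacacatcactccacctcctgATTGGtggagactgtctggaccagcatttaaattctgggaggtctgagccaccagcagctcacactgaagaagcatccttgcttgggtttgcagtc

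Among 24 tested genes of related glycoproteins, 0 passed the edgeR test (1.08% of all genes). Before adjustment 8 had p under 0.05 (17.9% of all genes), and limma-voom called 2 (1.02% of all genes) and DESeq2 5 (10.6% of all genes). The groups did not overlap for 12 of the 24, of which 3 were higher in E14.5 (12.1% of all genes) and 9 lower (12% of all genes). The median log2 fold change was -0.42. By mean over all libraries the most abundant were Ctgf (adjusted p = 0.411, edgeR) and Fbln2, the fibulin 2 gene, at 2571 ± 1035 CPM at E14.5 against 3623 ± 888 CPM in adults (adjusted p = 0.522). Embryonic culture 2 raised the Fbln2 mean, with 3766 CPM, and Fstl1 exceeded Fbln2 in embryonic cultures 1 and 3. The 5 that DESeq2 called are named here after their values were seen. Smoc1, which encodes a SPARC-related protein, measured 0.907, 0.776 and 6.15 CPM at E14.5 against 124, 324 and 182 CPM in adulthood (log2 fold change -6.32, adjusted p = 0.054, edgeR). Wisp2, a CCN gene, measured 13.2, 9.59 and 53.3 CPM at E14.5 against 597, 328 and 606 CPM in adulthood (log2 fold change -4.33, adjusted p = 0.067, edgeR). Sparcl1, the nearest relative of Sparc, had a log2 fold change of 5.46, Tgfbi, a relative of Postn, 4.25, and Spock2 -2.33, with edgeR adjusted p of 0.105, 0.100 and 0.145. Sparcl1 measured 60.4, 4.44 and 143 CPM at E14.5 against 1.59, 1.04 and 2.04 CPM in adulthood. Tgfbi measured 89.3, 10.3 and 146 CPM at E14.5 against 5.60, 4.07 and 3.20 CPM in adulthood. Both thus lay higher in all E14.5 cultures than in adults, but embryonic culture 2 was far below the other embryonic cultures, as for Postn. Sparc and Postn overlapped between the groups. Whether these relatives differed from Sparc and Postn in their response was not tested.

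Leaving out embryonic culture 2 changed the count for these glycoproteins and not for the members. In that fit 7 of the 24 passed, against 3.42% of all genes tested, and 0 of 9 members did. The 7 were Sparcl1, Tgfbi, Smoc2 and Emilin1, which were higher in E14.5, and Smoc1, Spock2 and Cyr61, which were lower. The adjusted p-values lay between 0.011 and 0.050 (edgeR), with Smoc1, Spock2 and Cyr61 at 0.0497, just under the threshold. The count of 7 was the highest of the fits without 1 library, the others calling 0 or 2, so it depends on this setting.

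Receptors bind these proteins at the cell surface. Of 19 receptor genes tested, 0 passed the edgeR test (1.08% of all genes) and 2 had p under 0.05 before adjustment (17.9%). By limma-voom 1 was called (1.02%) and by DESeq2 2, a share close to the 10.6% of all genes. The median of the 19 log2 fold changes was -0.13. By mean over all libraries the most abundant were both chains of a main fibronectin receptor, although Itga5 lay below Lrp1 and Calr in embryonic cultures 2 and 3 and adult culture 2. Itgb1, the beta 1 integrin gene, measured 4094 ± 666 CPM at E14.5 against 3298 ± 144 CPM in adults (adjusted p = 0.434), and Itga5, the alpha 5 gene, 1236 ± 510 and 1386 ± 573 CPM (adjusted p = 0.901; SD, n = 3 each, edgeR). The 2 receptors whose groups did not overlap (24.1% of all genes), named after their values were seen, were Cd36 and Itgb8. Cd36, a thrombospondin receptor of macrophages, microvessels and fat, measured 10.2, 24.1 and 54.8 CPM at E14.5 against 0.984, 0.0497 and 0.281 CPM in adulthood (log2 fold change 6.02, adjusted p = 0.065, edgeR). It was highest in embryonic culture 3, the library with the most macrophage markers, whose part was not tested. Itgb8, the integrin chain that activates latent TGF-beta, measured 0.0938, 0.559 and 0.0618 CPM at E14.5 against 8.06, 6.41 and 4.54 CPM in adulthood. Its log2 fold change was -4.71 (adjusted p = 0.070, edgeR). The low side of both genes rests on few counts, so the size of these fold changes is uncertain. Itgb8 had 3, 18 and 2 counts at E14.5, and Cd36 had 26, 1 and 8 counts in adults.

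Focal adhesion genes couple integrins to actin. None of 19 tested focal adhesion genes passed the edgeR test (1.08% of all genes), 0 had p under 0.05 before adjustment (17.9%), and the other tools, limma-voom (1.02%) and DESeq2 (10.6%), called 0 each. Flna, the filamin A gene, measured 3860 ± 478 CPM at E14.5 against 4428 ± 663 CPM in adults, and Actn1, for alpha-actinin 1, 2510 ± 323 and 2486 ± 320 CPM (SD, n = 3). The list of TGF-beta and serum response genes had 0 of 18 past the edgeR test (1.08% of all genes), 5 with p under 0.05 before adjustment (17.9%), 2 called by DESeq2 (10.6%) and 0 by limma-voom (1.02%). Acta2 measured 12918 ± 2828 CPM at E14.5 against 12812 ± 3594 CPM in adults, and Tagln, the transgelin gene, 5639 ± 739 and 6132 ± 1390 CPM. The 2 that DESeq2 called, named after their values were seen, were Ltbp2 and Amotl2. Ltbp2, which encodes a binding protein of the latent TGF-beta family, measured 331, 444 and 329 CPM at E14.5 against 1183, 726 and 1314 CPM in adulthood (log2 fold change -1.54, adjusted p = 0.063, edgeR). The level of Amotl2, a target of YAP, had a log2 fold change of -0.57 (adjusted p = 0.148, edgeR).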

How the data were processed

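Stranded poly(A) RNA libraries, read from 1 end over 75 bp, were aligned by the authors with STAR to mm10, per the submitters' processing notes, and the deposited values are whole-number counts per gene. For the STAR version, the annotation and the handling of shared reads, nothing is stated in the labels. The reverse-strand column was used, since forward-strand reads were 1.33% to 1.69% of stranded gene counts. The 4 summary rows (17.4% to 19.8% of counts) were left out.

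Counts were tested across all genes in R 4.3.3 with edgeR 4.0.16 (filterByExpr, TMM, robust quasi-likelihood test, Benjamini-Hochberg adjustment, threshold 0.05), and with DESeq2 1.42.0 and limma 3.58.1 (voom) as alternatives. The SE is the log2 fold change divided by the square root of F, and is approximate, as are the 95% intervals. The procedure was tested on simulated data. Permutation tests used scipy 1.17.1. Samples were grouped by the stage label, with replicates numbered in accession order.

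The members and gene lists were chosen with earlier results of these data known. Named genes were all members, up to 3 higher and 3 lower called genes and the 2 most abundant uncalled genes of each list, and the 2 nearest profiles of each member. Alternatives covered scaling, filter, tool, threshold, strand column, title prefix as a block and left-out libraries. Marker lists for pericytes, glia and neurons, cartilage and bone, and smooth muscle were also summed. Smooth muscle markers came to 20066 to 38776 CPM, pericyte markers to 697 to 1214 CPM, glial and neuronal markers to 14.0 to 146 CPM, epithelial markers to 10.2 to 61.8 CPM, and cartilage and bone markers to 8.44 to 322 CPM per library.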

Additional observations from a re-analysis of the deposited data

Results flagged for a closer look

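Forward-strand reads, which the comparisons do not use, came to 1.5% of stranded counts over all genes and libraries. Their share was higher at 3 members. It was 5.32% at Tnxb, from 15 forward-strand counts, 1.80% at Thbs3, from 14, and 4.0% at Thbs4, from 1, summed over 6 libraries. The study has no control samples for this signal.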

How the results depend on the processing

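The 9 tested members had 171 fold changes over 19 alternatives each, of which 167 kept direction and call. Tnxb turned to 0.028 without E14.5 replicate 1 and 0.278 without E14.5 replicate 2, and Thbs3 to 0.141 without E14.5 replicate 2, whereas without E14.5 replicate 3 they were -1.61 and -0.72. Members called were 0 in each fit except DESeq2, with 1. All genes called were 146 by default, 1427 in DESeq2, 2 at an adjusted p of 0.01, 2 with the title prefix as a replicate block, 0 with adult replicates 2 and 3 removed, and 36 with E14.5 replicate 3 and adult replicate 2 removed (for the former, a single adult library was then assumed to vary like the E14.5 group). They ranged from 3 to 471 over fits without 1 library, with 3 without E14.5 replicate 1 or adult replicate 3, 38 and 46 without adult replicates 1 and 2, and 471 without E14.5 replicate 2. Related glycoproteins called were 5 in DESeq2, 2 in limma-voom, 2 with E14.5 replicate 3 and adult replicate 2 removed, and 0 to 7 without 1 library. Receptors called were 2 in DESeq2, 1 in limma-voom and 0 to 1 without 1 library. TGF-beta and serum response genes called were 1 with library size alone, 2 in DESeq2 and 0 to 1 without 1 library. Causes were not tested beyond what each setting removes. Libraries that share a title prefix did not deviate together (correlations of -0.141, -0.229 and -0.088), although their forward-strand shares were alike (1.49% and 1.54%, 1.68% and 1.69%, 1.34% and 1.33%), and what the prefix marks is not stated. At 3 cultures a group, the 95% intervals of Postn, Thbs3 and Tnxb reach beyond 1 log2 unit in both directions. A difference of that size either way thus remains possible for them. The intervals of Thbs2 (-3.46 to 0.43, SE 0.80) and Spp1 (0.25 to 4.71, SE 0.92) were also wide, so such a difference could be missed there too. Those of Thbs1 (-1.26 to 0.19) and Tnc (-0.43 to 1.48) reach beyond 1 unit in 1 direction.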
